A study of Homo sapiens with 12 samples.

Results

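Imprinted genes are transcribed mainly from the allele inherited from 1 parent. The list examined here held 35 such genes from 19 loci, named by symbol and split by the parental allele that is usually active, and a gene counted as measured when a transcript cluster (the set of array probes that stand for 1 locus) was annotated with that gene alone. Of the 35 genes, 27 were measured, among 18417 genes in all. They comprised 14 of 19 paternally expressed genes, 8 of 10 maternally expressed genes and 5 of 6 genes of mixed status, whose imprinting depends on isoform or tissue or varies between people. H19, IGF2, PEG3, ZIM2, COPG2 and SNRPN lay only in clusters shared with other genes, and KCNQ1OT1 and SLC22A18 were not analysed here.

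The arrays measured total RNA from NCCIT, a human embryonal carcinoma line derived from a nonseminomatous germ cell tumour, on Affymetrix gene-level arrays. Cells were transfected with siRNAs against WDR5 (siWDR5), EED (siEED), RNF2 (siRNF2), EED and RNF2 together (siEED+RNF2) or SETD2 (siSETD2), or with a non-targeting control siRNA (siNTC), as mixed pools for the first 4 of these conditions per the study's methods, with 2 arrays per condition and 12 in all. The siNTC arrays carry a re-analysis tag in their labels, and all 5 knockdowns were compared with this same pair, so the 5 comparisons are not independent. Per the study's methods, the dual mix held both siRNA pools, each at the amount of a single mix, and more reagent. Joint loss of EED and RNF2 cannot be told apart from this larger dose. The labels do not say whether the 2 arrays of a condition came from separate cultures, so the p-values measure only the spread between arrays, which may be technical. All groups are 1 cell line, and a knockdown lowers a transcript without removing it. A lower signal in such bulk RNA cannot tell fewer cells that express a gene from less RNA per cell.

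At most imprinted loci a stretch of DNA methylated on 1 parental allele in the germ line sets which copy of the neighbouring genes is used, and zinc-finger proteins with their corepressor keep that mark through early development. Polycomb and trithorax-type complexes act on the histones of the same genes. WDR5 is a core part of the MLL/COMPASS complexes that methylate H3K4, EED is a core part of PRC2, which trimethylates H3K27, RNF2 is the PRC1 ligase that ubiquitinates H2AK119, and SETD2 trimethylates H3K36 in transcribed genes. Germ cell tumours derive from cells that erase and rebuild imprints, so parental labels given here describe normal tissue and were not measured in NCCIT.

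Correlations were 0.9960 to 0.9970 between arrays of the same condition and 0.9834 to 0.9952 between arrays of different conditions. WDR5 retained 43.1% of its siNTC signal in siWDR5, EED 40.8% in siEED and 32.7% in siEED+RNF2, and SETD2 29.7% in siSETD2, while the RNF2 transcript was not analysed here. Of 12 fixed markers of embryonal carcinoma and pluripotent cells 9 were measured, and their mean log2 level was 11.29 in siSETD2 arrays and 10.76 to 10.98 in the other knockdown arrays, against 11.11 to 11.12 in siNTC arrays. Of these markers, those called lower were LIN28A in siWDR5 (-0.68), GDF3 in siRNF2 (-0.59), and LIN28B (-0.90) and L1TD1 (-1.08) in siEED+RNF2. DPPA4 (0.59) and L1TD1 (0.67) were called higher in siSETD2, and none was called in siEED. The median log2 value over all genes lay 0.13 above siNTC in siRNF2, 0.08 above it in siEED and siEED+RNF2, and within 0.01 of it in siSETD2, and the differences below are on the deposited scale, without recentring. Among markers of other cell types, TFAP2C was the only 1 of 7 trophoblast markers called, higher in 4 knockdowns. GATA3 of the same list differed by -0.47 to -0.21, and the list median by -0.10 to -0.01. POSTN was the only 1 of 7 fibroblast markers called, lower in all 5, with a list median of -0.20 to -0.13. Of all genes 2.64% to 6.37% were called higher and 2.63% to 6.02% lower. None of 3 measured blood markers was called, and the part of these markers in the results was not tested.

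The starts of 2 of the loci are shown for what they hold in sequence. INPP5F, which encodes a phosphoinositide phosphatase, has 2 annotated starts here, of which start 1 lies upstream of start 2. Whether start 1 marks the 5' end of the gene was not examined. An internally initiated variant of the gene is the form known to be imprinted, in brain. BLCAP, a conserved small membrane protein gene, spans NNAT, which lies inside it. Each stretch is 300 bases from RefSeq on GRCh38.p14 (250 before and 50 after an annotated start), in transcript direction, with CG dinucleotides, the sites of DNA methylation, in capitals.
INPP5F start 1, chr10:119726246-119726545, + strand: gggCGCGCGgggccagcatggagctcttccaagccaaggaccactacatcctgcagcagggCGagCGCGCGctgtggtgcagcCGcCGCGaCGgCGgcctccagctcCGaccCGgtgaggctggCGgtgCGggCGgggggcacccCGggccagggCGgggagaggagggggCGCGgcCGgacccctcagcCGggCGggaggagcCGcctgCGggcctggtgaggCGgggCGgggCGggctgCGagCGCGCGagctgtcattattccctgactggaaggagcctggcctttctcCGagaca
INPP5F start 2, chr10:119819019-119819318, + strand: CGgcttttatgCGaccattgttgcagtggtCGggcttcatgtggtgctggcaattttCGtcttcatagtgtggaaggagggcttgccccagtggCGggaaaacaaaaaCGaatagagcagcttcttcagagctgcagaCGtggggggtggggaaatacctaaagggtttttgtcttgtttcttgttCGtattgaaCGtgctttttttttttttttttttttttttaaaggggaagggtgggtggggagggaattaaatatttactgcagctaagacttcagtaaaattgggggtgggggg
BLCAP start 1, chr20:37524404-37524703, - strand: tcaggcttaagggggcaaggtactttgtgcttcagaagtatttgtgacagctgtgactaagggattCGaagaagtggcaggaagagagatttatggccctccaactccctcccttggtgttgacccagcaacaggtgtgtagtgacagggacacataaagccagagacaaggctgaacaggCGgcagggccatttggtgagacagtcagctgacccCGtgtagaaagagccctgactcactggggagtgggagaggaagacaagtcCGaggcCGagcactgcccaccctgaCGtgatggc
BLCAP start 2, chr20:37527683-37527982, - strand: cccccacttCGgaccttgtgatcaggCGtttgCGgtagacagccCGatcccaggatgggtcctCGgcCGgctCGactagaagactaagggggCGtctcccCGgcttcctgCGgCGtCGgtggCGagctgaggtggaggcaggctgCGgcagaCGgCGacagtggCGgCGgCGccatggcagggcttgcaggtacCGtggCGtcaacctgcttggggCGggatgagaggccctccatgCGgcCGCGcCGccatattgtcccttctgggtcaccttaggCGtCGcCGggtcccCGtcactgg
The INPP5F window at start 1 held 34 CG and that at start 2 held 9, and the BLCAP windows held 6 and 30. Another BLCAP window, with 22 CG, overlaps the second.

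Among the 27 measured genes, 20 matched the RefSeq promoter table, with 46 windows between them, and DLK1, NNAT, KCNQ1, CDKN1C, PHLDA2, PEG10 and SGCE were not in it. The windows of imprinted genes held 2 to 49 CG with a median of 18, against a median of 14 over all 35116 windows. TGCCGC, the letters bound by the imprint-keeping zinc-finger protein ZFP57 when the CG is methylated, or its reverse complement GCGGCA, occurred in 18 of the 46 windows (39.1%), from 11 genes, and in 16.7% of all windows. Windows of 1 gene can overlap. In BLCAP the letters occurred in each of its windows and in INPP5F in neither, and a match is a description of the sequence and not of binding.

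A gene was called when the limma adjusted p, over all 18417 genes, was below 0.05 and the fold was at least 1.5 (0.58 on the log2 scale). In siWDR5, 1 imprinted gene was called higher and 2 lower, against 2.8% and 3.22% of all genes. Counts reached 2 higher and 0 lower in siEED (3.74% and 2.63% of all genes). In siRNF2 1 was higher and 3 were lower (6.37% and 3.81%). In siEED+RNF2 3 were higher and 2 lower (5.49% and 6.02%). In siSETD2 1 was higher and 1 lower (2.64% and 3.18%). In all, 8 of 27 genes (29.6%) were called in at least 1 knockdown, against 3611 of all genes (19.6%), and none was called in all 5.

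By parental class, 3 of 14 paternally expressed genes (DLK1, NNAT and PEG10), 2 of 8 maternally expressed genes (UBE3A and NLRP2) and 3 of 5 mixed genes (INPP5F, BLCAP and GRB10) were called at least once. The median log2 fold change of the 27 genes was 0.03 in siSETD2, -0.17 in siWDR5, -0.05 in siEED+RNF2, -0.07 in siRNF2 and -0.10 in siEED. Over all genes the medians were -0.01, -0.03, -0.02, -0.04 and -0.03 in that order. For paternally expressed genes they were 0.08, -0.20, -0.07, -0.15 and -0.12, and for maternally expressed genes -0.13, -0.15, -0.19, -0.07 and -0.13. For the 5 mixed genes the medians were 0.06, 0.27, 0.44, 0.37 and 0.32. Both siWDR5 arrays lay below both siNTC arrays for 16 of the 27 genes and above them for 7, whereas 36.3% of all genes lay below and 28.8% above. In siEED both arrays lay below for 14 genes and above for 4, against 37.8% and 29.2% of all genes. Below and above were 12 and 8 in siRNF2 (39.8% and 31.4% of all genes), 12 and 9 in siEED+RNF2 (36.4% and 33%) and 10 and 12 in siSETD2 (33.7% and 31%). Some called genes had all 10 knockdown arrays on 1 side of this shared pair, as described below. So did ZNF597, RTL1 and IGF2R, which were not called, and the share of all genes with this pattern was not computed.

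**Figure D1:**
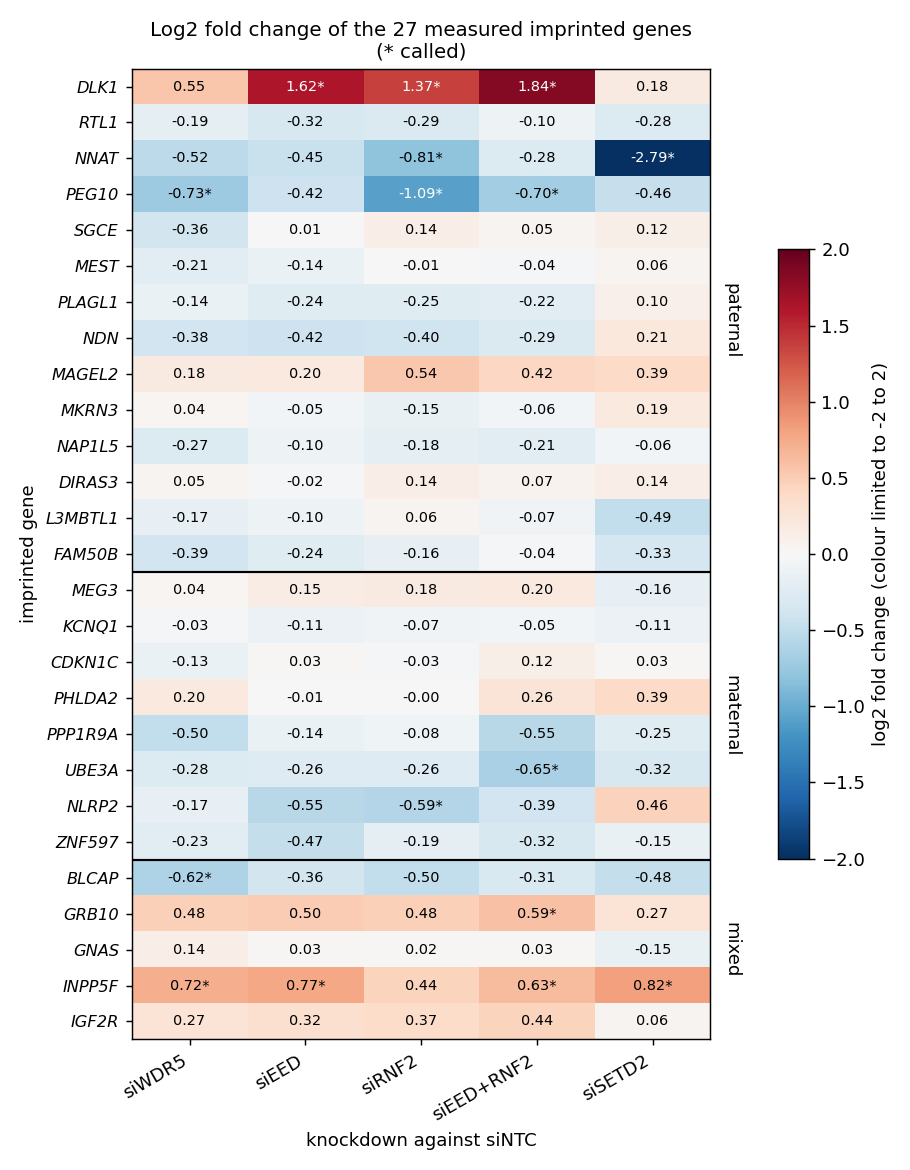
Log2 fold change of each of the 27 measured imprinted genes (rows, by parental class) in each knockdown against siNTC (columns); colour and printed value are the same quantity, and asterisks mark called genes. DLK1 is the only gene with values above 1, in siEED, siRNF2 and siEED+RNF2, and the siSETD2 value of -2.79 for NNAT is the lowest.

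DLK1, a paternally expressed transmembrane protein related to Notch ligands and known for holding back adipocyte differentiation, was higher in every knockdown that included EED or RNF2. Its log2 level was 7.79 and 7.86 in siEED arrays, 7.54 and 7.62 in siRNF2 arrays and 8.03 and 8.08 in siEED+RNF2 arrays, against 6.04 and 6.38 in siNTC arrays. These 6 knockdown arrays all lay above both siNTC arrays, by more than the gap between the siNTC pair. The fold changes were 3.07 in siEED (log2 1.62, SE 0.10, limma adjusted p = 6.6e-07), 2.58 in siRNF2 (log2 1.37, adjusted p = 1.3e-06) and 3.59 in siEED+RNF2 (log2 1.84, adjusted p = 1.0e-07).

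In the other knockdowns DLK1 was at 6.80 and 6.72 in siWDR5 arrays and 6.28 and 6.50 in siSETD2 arrays. The siWDR5 arrays were above both siNTC arrays and the siSETD2 arrays overlapped them. The log2 difference was 0.55 (95% interval 0.32 to 0.77, limma adjusted p = 0.00163) in siWDR5, short of the fold limit, and 0.18 (-0.05 to 0.41, adjusted p = 0.22) in siSETD2. In siWDR5 the call was gained without siWDR5 replicate 2 (0.59), without siNTC replicate 2 (0.72), with quantile normalization (0.59) and with centring on the median of all clusters (0.59). Counted down from the largest rise among all genes, DLK1 ranked 38 in siEED, 128 in siRNF2, 37 in siEED+RNF2, 609 in siWDR5 and 3838 in siSETD2.

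The partners of DLK1 at the same locus were not called. MEG3, the maternally expressed long noncoding RNA, differed by -0.16 in log2 in siSETD2 and by 0.04 to 0.20 in the others, and RTL1, a paternally expressed gene of retrotransposon origin, by -0.32 to -0.10. Both were dim, with mean levels below 5.27, the 30th percentile of all genes. Markers of endoderm and yolk sac, which in normal development can express DLK1, had a mean level of 5.02 to 5.08 in siEED, 5.05 to 5.06 in siRNF2 and 5.05 to 5.07 in siEED+RNF2, against 5.05 to 5.11 in siNTC, with 0 of 8 measured called in any of the 5 knockdowns, and their part in the result was not tested.

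NNAT, or neuronatin, a paternally expressed small membrane protein of developing brain and pancreatic islets, was far lower in siSETD2 than in any other condition. Its log2 level was 7.28 and 7.15 in siSETD2 arrays, against 10.00 and 10.00 in siNTC arrays. The siSETD2 pair lay far below the other 10 arrays. The log2 fold change was -2.79 (SE 0.08, limma adjusted p = 2.2e-09), which left 14.5% of the signal and ranked 4 from the lowest of all genes.

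NNAT was also lower, to a smaller degree, in siRNF2. Its level there was 9.17 and 9.21 (log2 fold change -0.81, limma adjusted p = 1.0e-05). Levels of 9.54 and 9.42 in siWDR5 arrays, 9.51 and 9.60 in siEED arrays and 9.83 and 9.63 in siEED+RNF2 arrays all lay below both siNTC arrays, with log2 differences of -0.52, -0.45 and -0.28 that did not reach the fold limit. In siWDR5 the call was gained without siWDR5 replicate 1 (-0.59). Of 7 fixed neural markers 5 were measured, with a mean level of 7.58 to 7.60 in siSETD2 arrays and 7.41 to 7.43 in siNTC arrays; STMN2 was called higher in siSETD2 (0.90), siWDR5 (1.28), siEED (0.92) and siEED+RNF2 (0.87), and MAP2 lower in all 5 knockdowns, by -0.66 in siSETD2 and -1.41 in siRNF2. PAX6, SOX1 and DCX were not called, and the part of these markers in the result was not tested.

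**Figure D2:**
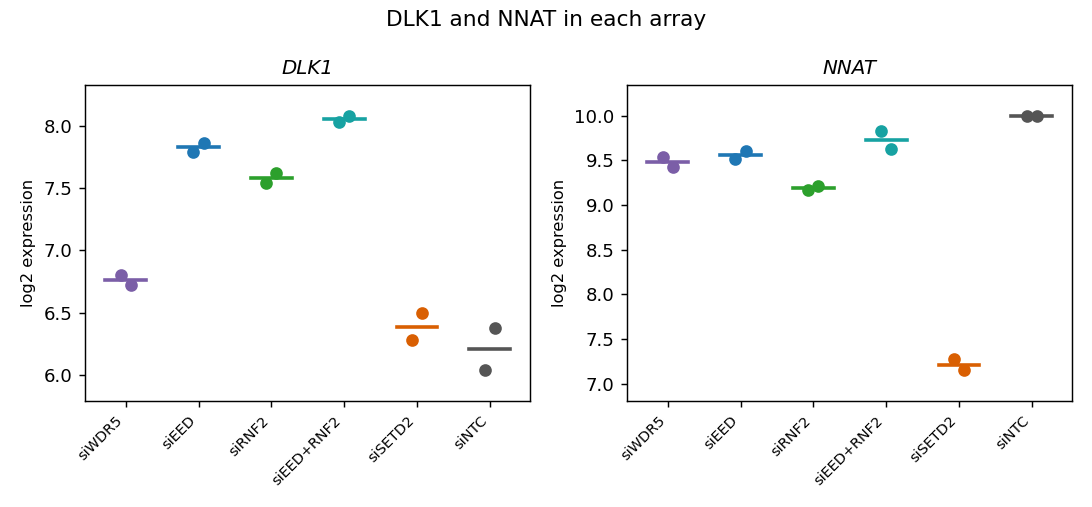
Log2 expression of DLK1 and NNAT in each array (points) and the mean of the 2 arrays (bars), by condition. DLK1 lies at 7.54 to 8.08 in the 6 arrays of siEED, siRNF2 and siEED+RNF2, and NNAT at 7.15 and 7.28 in siSETD2 against 10.00 in both siNTC arrays.

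BLCAP, the gene that spans NNAT, was called lower in siWDR5 and in no other knockdown. It was at 9.02 and 9.11 in siWDR5 arrays and 9.28 and 9.12 in siSETD2 arrays, against 9.67 and 9.69 in siNTC arrays. The log2 fold change was -0.62 in siWDR5 (SE 0.07, limma adjusted p = 4.0e-05) and -0.48 in siSETD2, short of the fold limit. The siEED arrays were at 9.34 and 9.31, the siRNF2 arrays at 9.19 and 9.17 and the siEED+RNF2 arrays at 9.38 and 9.36, so that all 10 knockdown arrays were below both siNTC arrays. The siWDR5 call was lost without siWDR5 replicate 1 (-0.57) and with centring on the median of all clusters (-0.58), and a call was gained in siRNF2 when arrays were centred on the median of the genes (-0.63).

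PEG10, a paternally expressed gene derived from a retrotransposon and needed for the placenta in mice, lay below siNTC in all 10 knockdown arrays. Its log2 level was 11.11 and 10.97 in siWDR5 arrays, 11.31 and 11.38 in siEED arrays, 10.67 and 10.68 in siRNF2 arrays, 11.07 and 11.06 in siEED+RNF2 arrays and 11.26 and 11.36 in siSETD2 arrays, against 11.78 and 11.75 in siNTC arrays. The siRNF2 pair was the lowest, and no knockdown array overlapped the siNTC pair. PEG10 was called in siWDR5 (-0.73, limma adjusted p = 1.4e-05), siRNF2 (-1.09, SE 0.07, adjusted p = 3.0e-07) and siEED+RNF2 (-0.70, adjusted p = 6.3e-06), and not in siEED (-0.42) or siSETD2 (-0.46).

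At the same locus SGCE, the epsilon-sarcoglycan gene, differed by -0.36 in siWDR5 and by 0.01 to 0.14 in the others, and PPP1R9A, which encodes neurabin, by -0.55 to -0.08 in all 5; neither was called. CASD1, the nearest measured gene on 1 side of PEG10 that is not imprinted in the list, was called lower in siEED+RNF2 (-0.75, limma adjusted p = 5.1e-06) and was at -0.55 in siRNF2.

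INPP5F was higher in 4 of the 5 knockdowns. Its log2 level was 9.01 and 8.99 in siWDR5 arrays, 9.02 and 9.07 in siEED arrays, 8.75 and 8.69 in siRNF2 arrays, 8.96 and 8.85 in siEED+RNF2 arrays and 9.19 and 9.02 in siSETD2 arrays, against 8.30 and 8.27 in siNTC arrays. All 10 knockdown arrays were above both siNTC arrays, with the siRNF2 pair nearest to them. The log2 fold changes were 0.72 in siWDR5 (limma adjusted p = 2.2e-05), 0.77 in siEED (adjusted p = 1.2e-05), 0.63 in siEED+RNF2 (adjusted p = 2.5e-05), 0.82 in siSETD2 (adjusted p = 7.5e-06) and 0.44 in siRNF2, where it was not called. Which of the 2 starts shown above its probes read was not examined. The siEED+RNF2 call was lost without siEED+RNF2 replicate 1 (0.57) and with centring on the median of the genes (0.55). BAG3, the nearest measured gene on 1 side, was lower in siEED (-0.65) and MCMBP on the other side was not called.

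NLRP2, a maternally expressed NOD-like receptor gene known as a maternal-effect gene in mammalian oocytes, was called lower in siRNF2. It was at 10.20 and 10.22 in siRNF2 arrays and 10.28 and 10.23 in siEED arrays, against 10.86 and 10.74 in siNTC arrays. Both pairs lay below the siNTC arrays, with log2 differences of -0.59 in siRNF2 (limma adjusted p = 1.8e-05) and -0.55 in siEED. It was 10.61 and 10.65 in siWDR5 arrays, 10.45 and 10.38 in siEED+RNF2 arrays and 11.27 and 11.26 in siSETD2 arrays, where it lay above siNTC by 0.46 and above every other array. The siRNF2 call stood at the limit: it was lost without siRNF2 replicate 1 (-0.58), without siNTC replicate 1 (-0.53), with quantile normalization (-0.57) and with centring on the median of all clusters (-0.53), and NLRP2 was called in siEED without siNTC replicate 2 (-0.60) and with centring on the median of the genes (-0.63).

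GRB10, an adaptor that binds insulin and IGF receptors and whose parental expression depends on tissue, was called higher in siEED+RNF2, at 10.44 and 10.49 in siEED+RNF2 arrays, against 9.86 and 9.88 in siNTC arrays (log2 0.59, limma adjusted p = 6.5e-06). It was at 10.33 and 10.38 in siWDR5 arrays, 10.39 and 10.36 in siEED arrays, 10.34 and 10.37 in siRNF2 arrays and 10.14 and 10.14 in siSETD2 arrays. Every knockdown array was above both siNTC arrays, and the differences of 0.48, 0.50, 0.48 and 0.27 missed the fold limit. The siEED+RNF2 call was lost without siEED+RNF2 replicate 2 (0.57), without siNTC replicate 1 (0.58) and with centring on the median of the genes (0.51). IGF2R, which clears IGF2 from the cell surface, was not called (0.06 to 0.44).

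UBE3A, a ubiquitin ligase expressed from the maternal allele in neurons, was called lower in siEED+RNF2. Its level was 9.60 and 9.57 in siEED+RNF2 arrays, against 10.31 and 10.15 in siNTC arrays (log2 -0.65, limma adjusted p = 1.3e-05). The arrays of the other knockdowns lay at 9.88 to 10.00, between those of siEED+RNF2 and siNTC, with log2 differences of -0.32 to -0.26. The siEED+RNF2 call was lost without siNTC replicate 1 (-0.56). At the same locus NDN, which encodes the growth suppressor necdin, differed by 0.21 in siSETD2 and by -0.42 to -0.29 in the others, and MAGEL2 and MKRN3 were dim and not called.

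**Figure D3:**
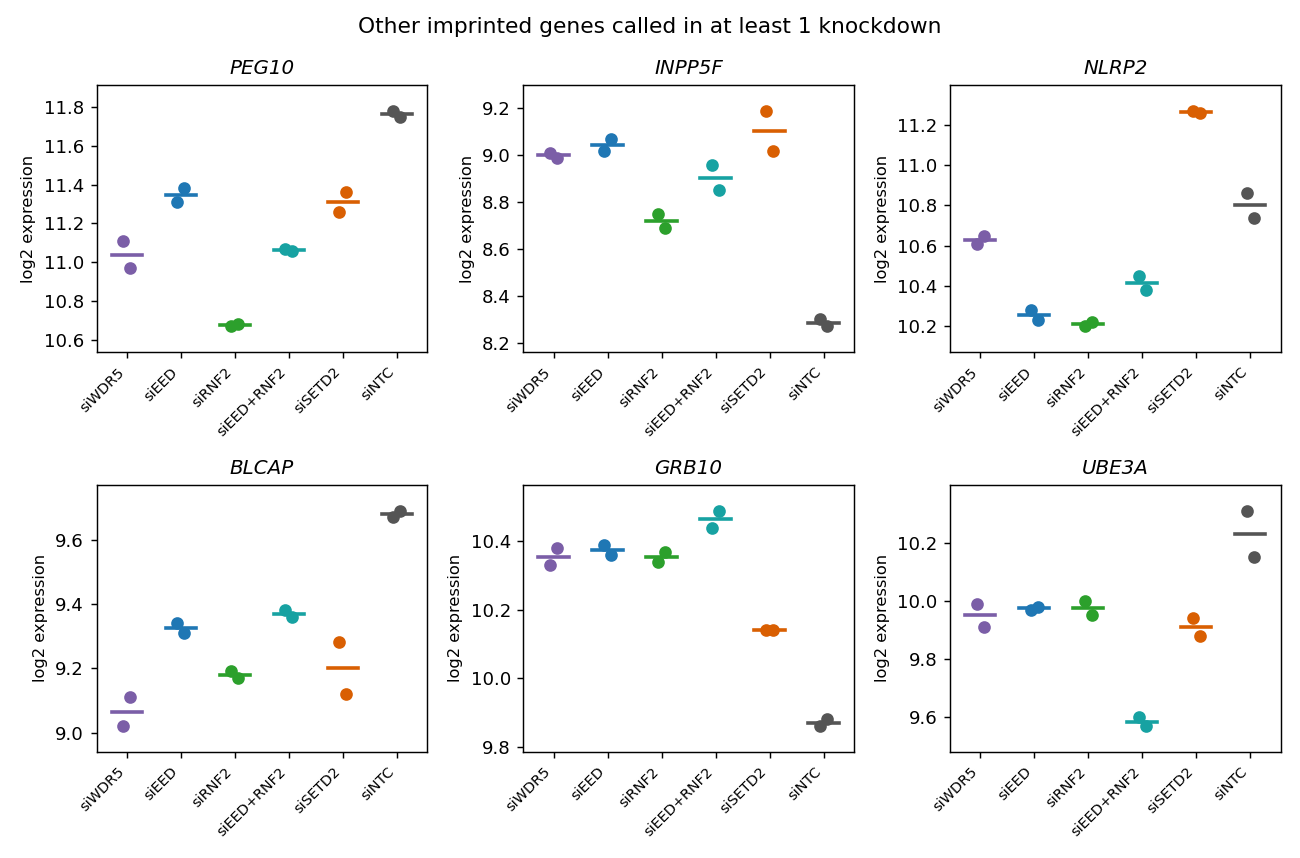
Log2 expression in each array (points) and condition means (bars) of the 6 other imprinted genes that were called at least once. Each panel has its own vertical axis. For PEG10, BLCAP, INPP5F, GRB10 and UBE3A all 10 knockdown arrays lie on 1 side of the siNTC pair. The same holds for ZNF597, RTL1 and IGF2R, which were not called.

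Because the siNTC pair is shared, each knockdown was also set against the mean of the other knockdowns, leaving siEED+RNF2 out of the mean for siEED and siRNF2, and both of these out of the mean for siEED+RNF2. DLK1 was still called higher in siEED (0.92), siRNF2 (0.59) and siEED+RNF2 (1.48), and NNAT lower in siSETD2 (-2.27). No other call against siNTC held with this reference. For INPP5F the values were 0.05 in siWDR5 (limma adjusted p = 0.541), 0.11 in siEED (adjusted p = 0.291), -0.15 in siEED+RNF2 (adjusted p = 0.0944) and 0.19 in siSETD2 (adjusted p = 0.0201). For PEG10 they were -0.06 in siWDR5 (adjusted p = 0.473), -0.55 in siRNF2 (adjusted p = 2.3e-05, short of the fold limit) and -0.11 in siEED+RNF2 (adjusted p = 0.17). BLCAP was at -0.20 in siWDR5, NLRP2 at -0.50 in siRNF2, GRB10 at 0.21 and UBE3A at -0.34 in siEED+RNF2, and NNAT turned to 0.44 in siRNF2. The mean used for siRNF2 holds siSETD2. Against siWDR5 and siEED singly NNAT was lower in siRNF2 (-0.29 and -0.36), with neither difference called.

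The 19 genes called in no knockdown had log2 fold changes of -0.55 to 0.54, and 7 of the 27 genes were dim (RTL1, DIRAS3, KCNQ1, MEG3, MAGEL2, MKRN3 and NAP1L5), with fold changes of -0.32 to 0.54. Replicate arrays of an imprinted gene differed by a median of 0.07 in log2, against 0.08 over all genes, and the largest such difference was 0.46, for MAGEL2 in siNTC. Among the genes not dim, CDKN1C, a maternally expressed cell-cycle inhibitor, spanned 0.29 over the 12 arrays, MEST 0.33 and GNAS, which encodes the stimulatory G protein alpha subunit, 0.31. PHLDA2, which restrains placental growth in mice, differed by 0.39 in siSETD2, and L3MBTL1, a chromatin reader, by -0.49. Levels of different probe sets are not comparable, and the 5 genes with the highest siNTC signal (PEG10, MEST, NLRP2, UBE3A and NNAT) and the 5 with the lowest (RTL1, DIRAS3, MAGEL2, MEG3 and KCNQ1) are named only as a guide to signal strength.

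Whether a gene differed between knockdowns was tested directly in all 10 pairs. The siNTC arrays do not enter these differences, but they do enter the shared estimate of the spread, and so the intervals and p-values. DLK1 was higher in siEED than in siWDR5 (log2 1.07, 95% interval 0.84 to 1.30, limma adjusted p = 3.4e-05), the 1 imprinted gene called there, where 3.33% of all genes were called. It was also the only one called in siRNF2 against siWDR5 (0.82; 5.93% of all genes) and in siEED+RNF2 against siWDR5 (1.30; 7.02%). The Polycomb knockdowns differed less among themselves for DLK1, by 0.23 (0.00 to 0.46) in siEED+RNF2 against siEED, 0.48 (0.25 to 0.70) in siEED+RNF2 against siRNF2 and -0.25 (-0.47 to -0.02) in siRNF2 against siEED, none of them called.

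No imprinted gene was called in siEED+RNF2 against siEED, where 2.91% of all genes were, or in siEED+RNF2 against siRNF2, where 3.27% were. At an unadjusted limma p under 0.05, 4 were higher and 3 lower against siEED, where 14.3% and 12.8% of all genes were, and 9 higher and 2 lower against siRNF2, where 13.6% and 16% were. In siRNF2 against siEED, PEG10 alone was called (-0.67, limma adjusted p = 1.6e-04; 1.26% of all genes).

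In siSETD2 the low NNAT level held against each other knockdown, with log2 differences of -2.26 against siWDR5, -2.34 against siEED, -1.97 against siRNF2 and -2.51 against siEED+RNF2. NLRP2 was higher in siSETD2 in the same 4 pairs, by 0.64, 1.01, 1.05 and 0.85. Against siWDR5, NDN was also higher (0.59), for 3 imprinted genes called where 5.84% of all genes were. Against siEED, DLK1 was lower (-1.44) and NDN higher (0.63), for 4 called (6.28% of all genes). Against siRNF2, DLK1 was lower (-1.19) and NDN (0.61) and PEG10 (0.63) higher, for 5 called (8.67%), where the PEG10 call was lost with quantile normalization (0.56) and without siSETD2 replicate 2 (0.58). Against siEED+RNF2, DLK1 was lower (-1.67), for 3 called (10.4%).

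**Figure D4:**
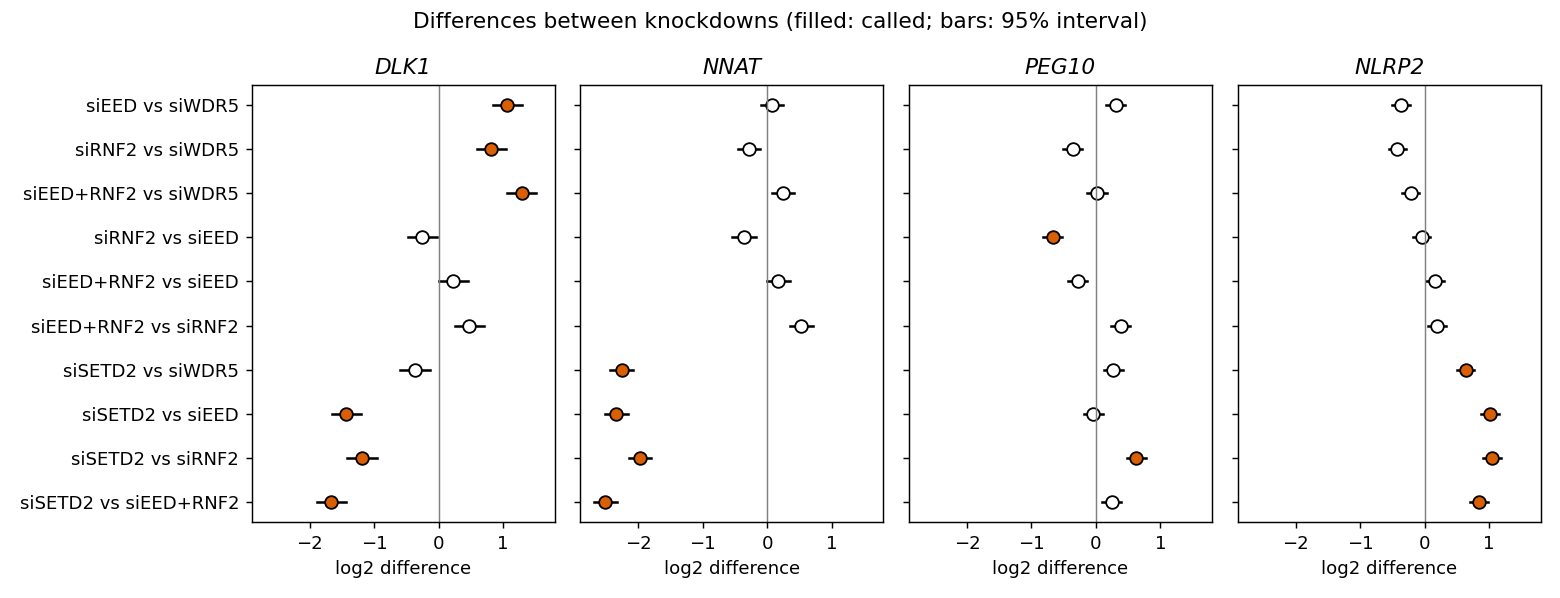
Log2 difference between knockdowns for DLK1, NNAT, PEG10 and NLRP2 (points) with 95% intervals (bars), 1 row per pair with the first-named knockdown minus the second; filled points are called. NNAT is filled only in the rows with siSETD2, at -1.97 to -2.51, and DLK1 in 6 rows.

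The dual knockdown was then set against the sum of the changes in siEED and siRNF2, with 4 imprinted genes called where 11.3% of all genes were. For DLK1 the change in siEED+RNF2 was 1.14 smaller in log2 than that sum (value -1.14, SE 0.15, limma adjusted p = 1.6e-04). For the genes that were lower in the single knockdowns the value was positive, 0.99 for NNAT (SE 0.11, adjusted p = 8.4e-05), 0.80 for PEG10 (SE 0.10, adjusted p = 9.8e-05) and 0.75 for NLRP2 (SE 0.09, adjusted p = 9.9e-05), so that in all 4 the dual change was smaller than the sum. Both siRNF2 and siEED enter this test with the same siNTC pair, and the larger dose of the dual mix cannot be told apart from joint loss.

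Genes that set or keep imprints form a separate list of 19, of which 17 were measured. Called higher and lower were 1 and 0 in both siSETD2 and siWDR5, 2 and 2 in siEED+RNF2, 2 and 1 in siRNF2 and 2 and 0 in siEED, where 2.64% to 6.37% of all genes were higher and 2.63% to 6.02% lower over the 5 knockdowns, and the median log2 fold change of the list was -0.10 to 0.08. DPPA3, which in mouse embryos shields imprinted regions from demethylation, was higher in all 5, by 2.10 in siSETD2 and by 1.41 to 1.55 in the others. DNMT3L, the cofactor that helps set germ-line imprints in mice, was higher in siEED (2.19, limma adjusted p = 4.3e-09), siRNF2 (1.84) and siEED+RNF2 (2.46), and at 0.42 in siWDR5 and 0.12 in siSETD2. DNMT3B, a de novo DNA methyltransferase, was called lower in siRNF2 (-0.71) and siEED+RNF2 (-0.62). It was not called in siEED (-0.56), siWDR5 (-0.34) or siSETD2 (0.24). SMCHD1, a chromatin protein that silences some imprinted clusters in mice, was lower in siEED+RNF2 (-0.70). ZFP57 and its corepressor TRIM28 were not called.

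DLK1 belongs to the Notch ligand family and GRB10 and IGF2R act on insulin and IGF signalling, so those lists were examined too. Of 17 Notch genes 16 were measured, with 0 to 1 called in each direction in a knockdown, beside the same shares of all genes. HES1, a target of Notch signalling, was lower in siEED (-0.67), siRNF2 (-0.90) and siEED+RNF2 (-0.65), while the targets HEY2 (0.50, 0.34 and 0.38), HES5 (0.18, 0.21 and 0.26), HEYL (0.02, 0.22 and 0.25) and HEY1 (-0.26, -0.25 and -0.20) were not called there. NOTCH3, a receptor, was called higher in siRNF2 (0.67) and siEED+RNF2 (0.71). It was not called in siEED (0.58, just short of the fold limit), siWDR5 (0.27) or siSETD2 (0.30). HEY2 was called higher in siWDR5 (1.07), and the ligand JAG1 was lower in siSETD2 (-0.78). Of 15 IGF genes 14 were measured, with 0 to 2 called higher and 0 lower in a knockdown, beside the same shares of all genes. The calls were IGFBP5 in siEED (1.99) and siEED+RNF2 (1.55), and IGFBP2 (0.61) and IGFBP7 (0.92) in siWDR5, all higher and all encoding IGF-binding or related proteins.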

How the data were processed

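Total RNA (250 ng per array) was labelled and hybridised per the labels. The deposited values are on a log2 scale, produced by the authors with GCRMA and Partek according to the submitters' processing notes (neither versions nor settings are given in the sources used here). They were used as deposited, with no further scaling. Of 33297 clusters, 19460 carry 1 gene symbol, 1754 several and 12083 none. Symbols were updated by gene number through RefSeq (GRCh38.p14; 19429 matched), clusters of several genes were left out, and the brightest cluster stood for each of 769 genes with more than 1. No imprinted gene had more than 1.

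A limma model (limma 3.58.1, R 4.3.3) holding 1 mean for each condition used all 12 arrays (6 residual degrees of freedom), with Benjamini-Hochberg adjustment over 18417 genes, and was tested on simulated data. With 2 arrays per condition, array number limits the precision. The genes and lists were chosen with earlier results of these data known, and 5 of the 10 pairs between knockdowns were added after values were seen. The text names the siRNA targets, DLK1 and NNAT, every listed gene called in a knockdown with its locus partners, and the 5 brightest and 5 dimmest in siNTC. Alternatives covered scaling, filters, thresholds, the reference, a replicate block and leaving out each array. Figures used matplotlib 3.10.9 under Python 3.11.15.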

Additional observations from a re-analysis of the deposited data

Results flagged for a closer look

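For 4 of the 27 imprinted genes (14.8%) the change in siEED+RNF2 differed from the sum of the changes in siEED and siRNF2 in a direct test. The same test called 11.3% of all genes, and its changes share the siNTC pair. The values were -1.14 for DLK1 (limma adjusted p = 1.6e-04), 0.99 for NNAT (adjusted p = 8.4e-05), 0.80 for PEG10 (adjusted p = 9.8e-05) and 0.75 for NLRP2 (adjusted p = 9.9e-05), all on the log2 scale.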

How the results depend on the processing

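Results called or counted in the comparisons moved mainly with the fold limit and the reference. With no fold limit the counts of imprinted genes called were 12 in siSETD2, 17 in siWDR5, 15 in siEED+RNF2, 13 in siRNF2 and 13 in siEED. Of all 18417 genes, 2912 were then higher and 2917 lower in siSETD2, 2802 and 3432 in siWDR5, 3793 and 3962 in siEED+RNF2, 3852 and 4075 in siRNF2 and 3039 and 3481 in siEED. With a fold of at least 2 the imprinted counts were 1, 0, 1, 2 and 1 in the same order, and shares of all genes were not computed for this limit. Set against the mean of the other knockdowns in place of siNTC, only the 3 calls of DLK1 and the siSETD2 call of NNAT held. The counts were then 3 in siSETD2, 1 in siWDR5, 2 in siEED+RNF2, 1 in siRNF2 and 2 in siEED, and shares of all genes were not computed. They include calls not made against siNTC. These were DLK1 lower in siWDR5 (-0.70) and siSETD2 (-1.17), NNAT higher in siEED (0.92) and siEED+RNF2 (1.38), and NLRP2 higher in siSETD2 (0.89). Among the 8 genes called at least once, directions turned only under that reference: DLK1 -0.70, NLRP2 0.09, NNAT 0.56 and UBE3A 0.09 in siWDR5; BLCAP 0.18, PEG10 0.34, NNAT 0.92 and UBE3A 0.03 in siEED; INPP5F -0.33, NNAT 0.44 and UBE3A 0.03 in siRNF2; BLCAP 0.24, INPP5F -0.15 and NNAT 1.38 in siEED+RNF2; PEG10 0.28, DLK1 -1.17, GRB10 -0.24 and UBE3A 0.04 in siSETD2. The mean held siSETD2 in each turn of NNAT and the Polycomb knockdowns in each turn of DLK1, so these values hold the differences from those knockdowns. The siEED+RNF2 against siRNF2 count was 0 to 1 over arrays left out, being 1 without siRNF2 replicate 2 or siEED+RNF2 replicate 2. The test against the summed changes called 7 imprinted genes with centring on the median of the genes (4 without), and the share of all genes with centring was not computed. The cause was not tested. Of 852 such gene values under the alternatives, 768 kept direction and call. Part of this was fixed in advance, so the share does not measure robustness. The replicate block, the ways of estimating the spread and the stricter p limit leave each fold change as it was. No imprinted gene had more than 1 cluster to average. Values called in neither setting also count as kept.

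With the replicate number as a block, the counts stayed at 2 in siSETD2, 3 in siWDR5, 5 in siEED+RNF2, 4 in siRNF2 and 2 in siEED. Every condition holds both replicate numbers, so the block leaves each fold change as it was and only the p-values could move. Replicate differences correlated at -0.11 to 0.16 over 15 pairs of conditions, so the replicate number is not shown to pair arrays. Arrays give no read depth; dim genes limit what their values can show.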
